A study of Mus musculus with 6 samples.

Results

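The class II cytokine receptor chains, which carry signals of interleukin-10, the interferons and the cytokines related to interleukin-20 and interleukin-22, were examined in stromal cells sorted from mouse colon. The 10 genes Il10ra, Il10rb, Ifnar1, Ifnar2, Ifngr1, Ifngr2, Ifnlr1, Il22ra1, Il20ra and Il20rb were chosen by name, out of 24346 genes listed, and each had a value in all 6 libraries. The Pdgfra-cre group held 3 mice (numbers 13, 23 and 25) with Il10ra flox/flox alleles and a cre recombinase driven by Pdgfra, a gene of fibroblasts. The floxed group held 3 mice (numbers 8, 9 and 43) with Il10ra flox/flox alleles and no cre. Mice of both groups were 12 weeks old and treated with 1% dextran sulfate sodium (DSS), which injures the colonic epithelium, so no uninjured colon was compared. Live cells positive for Podoplanin and negative for CD45, CD31 and EpCAM were sorted from the whole colon of each mouse. The sort did not use PDGFRA, so cells without cre activity can be present in the Pdgfra-cre libraries. The series title names interleukin-10 receptor signaling in fibroblasts and type I interferon as its subjects.

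Receptors of this family work as pairs of unlike chains, each bound to a Janus kinase. In the interleukin-10 receptor, IL10RA binds the ligand and JAK1, while IL10RB brings TYK2 and is also the second chain of the receptors for interleukin-22 and for the lambda interferons. IFNAR1 and IFNAR2 form the receptor for type I interferons, IFNGR1 and IFNGR2 that for interferon gamma, and IL20RA and IL20RB one of the receptors for interleukins 19, 20 and 24. IFNLR1 and IL22RA1 are known mainly from epithelial cells, and IL10RA mainly from leukocytes.

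The chains lie in small clusters in the mouse genome (mm10, GENCODE M21 positions). On chromosome 16, Ifnar2 (91372783 to 91405589), Il10rb (91406164 to 91425834), Ifnar1 (91485238 to 91507441) and Ifngr2 (91547072 to 91565623) follow each other on the plus strand within 193 kb. Only 574 bases separate Ifnar2 from Il10rb, and the annotated gene Gm21970 (91391721 to 91419451) overlaps both on the same strand. Gm21970 has no row in the tables, and how the counting divided reads that these genes share was not stated. Ifngr1 (19591949 to 19610229) and Il20ra (19712570 to 19760053) lie on chromosome 10, and Ifnlr1 (135686287 to 135708181) and Il22ra1 (135728172 to 135752140) on chromosome 4. Il10ra (45253837 to 45269149) and Il20rb (100457719 to 100486788) lie far apart on chromosome 9.

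The upstream sequences of both interferon receptor pairs are shown because the chains of each pair differed widely in level, and that of Il22ra1 because this gene was listed at 0 in every library. RefSeq promoter entries (GRCm38.p6) matched 8 of the 10 genes, and Il10ra and Il10rb had none. Each line gives the 250 bases before the transcription start, read 5′ to 3′ along the gene. Capitals mark matches on either strand to TTCNNNGAA, the spacing of STAT sites, and to GGGCGG, the GC box.
Ifnar2 (chr16:91372533-91372782, plus strand): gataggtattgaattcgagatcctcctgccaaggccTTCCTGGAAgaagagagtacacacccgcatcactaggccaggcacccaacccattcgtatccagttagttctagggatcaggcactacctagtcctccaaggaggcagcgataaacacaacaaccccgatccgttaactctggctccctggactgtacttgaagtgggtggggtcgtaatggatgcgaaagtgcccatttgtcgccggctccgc
Ifnar1 (chr16:91484965-91485214, plus strand): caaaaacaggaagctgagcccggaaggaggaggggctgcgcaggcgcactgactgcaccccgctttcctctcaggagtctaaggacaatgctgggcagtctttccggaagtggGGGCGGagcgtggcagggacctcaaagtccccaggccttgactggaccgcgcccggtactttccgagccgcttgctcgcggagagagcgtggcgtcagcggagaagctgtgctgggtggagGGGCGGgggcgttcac
Ifngr1 (chr10:19591699-19591948, plus strand): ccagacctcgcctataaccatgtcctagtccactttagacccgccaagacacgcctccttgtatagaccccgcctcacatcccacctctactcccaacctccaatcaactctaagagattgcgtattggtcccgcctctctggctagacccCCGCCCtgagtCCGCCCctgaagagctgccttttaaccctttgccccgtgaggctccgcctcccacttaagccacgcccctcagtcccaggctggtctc
Ifngr2 (chr16:91546809-91547058, plus strand): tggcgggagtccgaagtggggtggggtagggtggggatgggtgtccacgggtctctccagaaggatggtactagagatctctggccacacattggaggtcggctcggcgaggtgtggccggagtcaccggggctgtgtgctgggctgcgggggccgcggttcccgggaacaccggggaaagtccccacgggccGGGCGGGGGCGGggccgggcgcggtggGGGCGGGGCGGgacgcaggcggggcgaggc
Il22ra1 (chr4:135727909-135728158, plus strand): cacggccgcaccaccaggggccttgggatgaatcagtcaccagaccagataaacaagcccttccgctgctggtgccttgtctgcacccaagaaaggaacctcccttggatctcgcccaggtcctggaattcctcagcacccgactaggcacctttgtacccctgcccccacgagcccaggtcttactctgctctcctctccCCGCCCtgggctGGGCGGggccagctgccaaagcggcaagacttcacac

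Within these 250 bases TTCNNNGAA was found in Ifnar2 and in none of the other 7 entries, and 7.02% of 32851 mouse promoter windows of the same length hold it. Its first base lay at position -214 from the start of Ifnar2, counting the last base shown as -1. The core of the interferon-stimulated response element, searched on both strands as GAAA, any 2 bases and GAAA, was found in none of the 8 windows, and 2.98% of all windows hold it. GGGCGG was found 4 times in Ifngr2, 2 times in each of Ifnar1, Ifngr1 and Il22ra1, once in each of Ifnlr1 and Il20rb, and not in Ifnar2 or Il20ra, against a match in 32.7% of all windows. The 4 windows of the type I interferon and interferon gamma receptor genes held 11 to 25 CG pairs, where the median of all windows was 6. Among the chains of low level Ifnlr1 held 14, Il22ra1 9, Il20ra 7 and Il20rb 1, so the ranges of both kinds overlapped. A match says only that these letters are present.

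The genes separated into 5 chains that every library expressed and 5 that were low or listed at 0. Levels are in FPKM, which divides the fragments of a gene by its transcript length in kilobases and by the mapped total in units of 1000000, a scale that allows genes of different length to be compared. By mean level over 6 libraries the order was Ifngr1 (228 FPKM), Ifnar2 (145), Il10rb (57.7), Ifngr2 (26.8), Ifnar1 (17.98), Il20rb (1.42), Il20ra (1.12), Ifnlr1 (0.132), Il10ra (0.0696) and Il22ra1 (0). Ifngr1 exceeded 96.6% of the 11429 genes tested between genotypes in mean level, Ifnar2 94.3%, Il10rb 86.4%, Ifngr2 73.9% and Ifnar1 64.9%. Among the first 5 chains each neighbour in this order was the higher one in 6 of 6 libraries. The ranges of Ifngr2 and Ifnar1 overlapped across libraries, while those of the other neighbours down to Ifnar1 and Il20rb did not overlap. From Il20rb downward the ranges of all neighbours overlapped, and Il20rb was above Il20ra in 3 of 6 libraries.

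**Figure D1:**
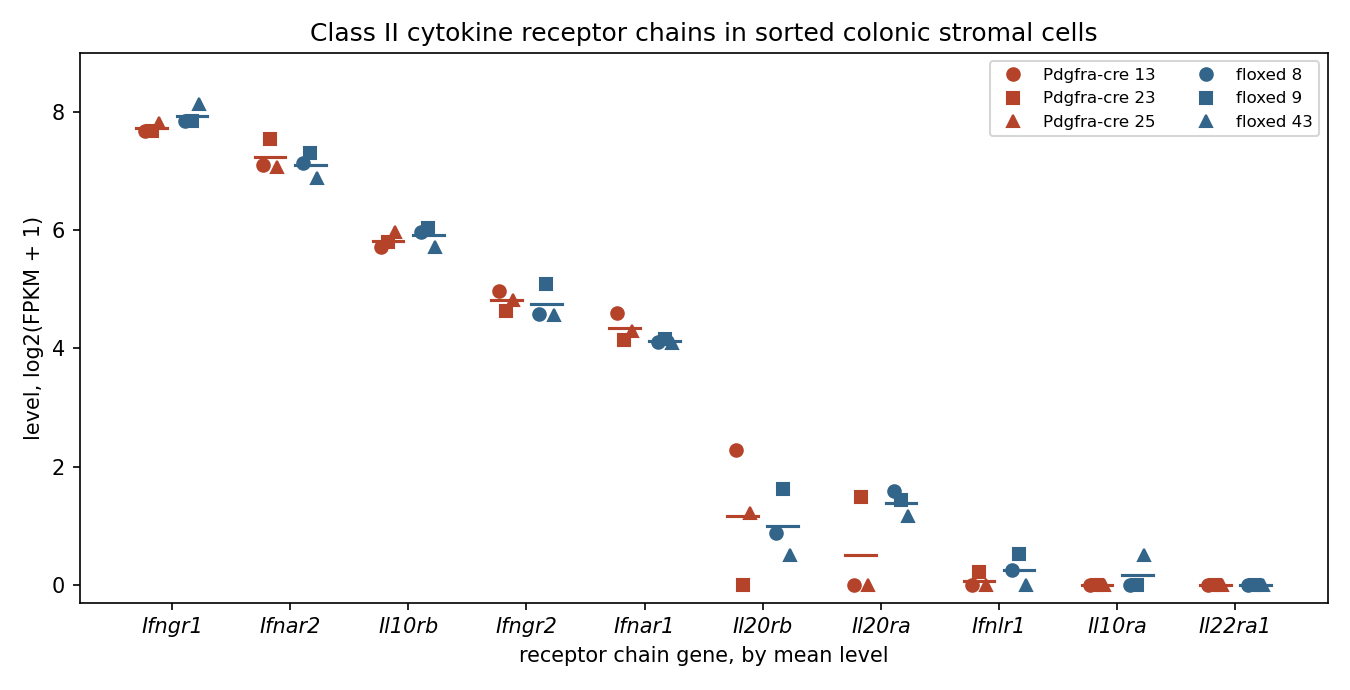
Level of each receptor chain gene in each library, as log2(FPKM + 1), with Pdgfra-cre libraries in red to the left of floxed libraries in blue, and bars for group means of 3 libraries. Ifngr1, Ifnar2, Il10rb, Ifngr2 and Ifnar1 were expressed in all 6 libraries, and Il22ra1 was at 0 in all 6.

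Il10ra, the targeted gene, had the lowest level of the chains that were detected at all. It was listed at 0 FPKM in Pdgfra-cre libraries 13, 23 and 25 and in floxed libraries 8 and 9, and had 0.418 FPKM in floxed library 43. The groups overlapped, since both held libraries at 0. An exact two-sided permutation test of log2(FPKM + 1) gave p = 1. With only library 43 above 0, the test returns this value whichever library is the one above 0. It therefore cannot decide whether Il10ra differed between groups. An exact two-sided permutation test of 3 libraries against 3 can give p = 0.1 at the smallest, which was out of reach for this gene. From the steps between low values, the value in library 43 was estimated to rest on about 12.5 fragments. In the other libraries 3 fragments would have given 0.0954 to 0.113 FPKM. With 2 of 3 floxed libraries at 0, a loss of the transcript was not detectable at this depth. The labels do not say which exon the floxed alleles remove, and a value for the whole gene need not show it.

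Leukocyte transcripts are given beside Il10ra because the gene is known mainly from leukocytes. The summed level of 10 leukocyte markers, of which 3 reached 1 FPKM in 3 or more libraries, was 11.5 to 52.0 FPKM in Pdgfra-cre libraries and 9.23 to 16.9 FPKM in floxed libraries. Floxed library 43, the library with Il10ra, had the lowest sum, 9.23 FPKM, and Pdgfra-cre library 23, with Il10ra at 0, had the highest. With Il10ra above 0 in 1 library, a relation to these markers could not be tested. The CD45 gene Ptprc ranged up to 1.04 FPKM and was at 0 in 1 library.

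Il10rb, the second chain of the interleukin-10 receptor, was expressed throughout. It had 51.3, 54.6 and 61.5 FPKM in Pdgfra-cre libraries 13, 23 and 25, against 62.0, 64.7 and 51.8 FPKM in floxed libraries 8, 9 and 43. Values of both groups covered nearly the same range. Its log2 fold change was -0.09 ± 0.13 (SE), with a 95% interval of -0.39 to 0.21 and an adjusted p of 0.869 in limma over all genes. Within libraries, Il10rb was at least 518 to 645-fold above Il10ra in the 5 libraries where Il10ra was at 0, taking 3 fragments as the level of Il10ra. In floxed library 43 the ratio was 124. Il10 itself, the ligand, lay between 0 and 0.0957 FPKM in cells from which leukocytes had been sorted out.

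The type I interferon receptor chains had unlike levels and showed no difference between genotypes beyond the spread of their libraries. Ifnar1, the chain that binds TYK2, had 23.3, 16.7 and 18.6 FPKM in Pdgfra-cre libraries 13, 23 and 25, against 16.27, 16.95 and 15.99 FPKM in floxed libraries 8, 9 and 43. Library 13 was above the rest and library 23 lay within the range of floxed libraries, so the groups overlapped. The log2 fold change was 0.23 ± 0.16 (SE; 95% interval -0.14 to 0.59; adjusted p = 0.683, limma), and without Pdgfra-cre library 13 it was 0.10. Floxed libraries varied little in this gene, with 16.4 ± 0.497 FPKM, against 19.5 ± 3.44 FPKM in Pdgfra-cre libraries when both are given as SD over 3 libraries.

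Ifnar2, the chain that binds JAK1, had 136, 185 and 134 FPKM in Pdgfra-cre libraries 13, 23 and 25, against 140, 157 and 117 FPKM in floxed libraries 8, 9 and 43. Library 23 alone stood above the floxed range. The log2 fold change was 0.13 ± 0.16 (SE; 95% interval -0.23 to 0.49; adjusted p = 0.844, limma). Without Pdgfra-cre library 23 the direction turned, to -0.022. That library also had the highest sum of 8 neutrophil markers, of which 4 reached 1 FPKM in 3 or more libraries. S100a8 and S100a9 gave 94.7 and 63.9 FPKM of it there. The neutrophil sum was 12.1 to 193 FPKM in Pdgfra-cre libraries and 2.32 to 12.8 FPKM in floxed libraries. Sums of fibroblast, leukocyte, macrophage, T cell, epithelial and mesothelial markers were also highest in library 23. The part of these cells in the Ifnar2 value was not tested. The gene is known to give both membrane-bound and soluble forms of the receptor chain in mice, which a value per gene does not separate.

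The interferon gamma receptor chains included the most abundant member of the family. Ifngr1, the ligand-binding chain, had 205, 204 and 223 FPKM in Pdgfra-cre libraries 13, 23 and 25, against 229, 229 and 280 FPKM in floxed libraries 8, 9 and 43. All Pdgfra-cre libraries were below all floxed libraries, by a small margin between library 25 and floxed library 9. It was the only tested chain whose groups did not overlap, where 8.29% of all tested genes lay apart in this direction. Its log2 fold change was -0.22 ± 0.12 (SE; 95% interval -0.48 to 0.05; adjusted p = 0.560, limma), and without floxed library 43 it was -0.12. Smooth muscle transcripts lay apart in the same direction, with a summed level of 177 to 451 FPKM for 6 markers in Pdgfra-cre libraries and 757 to 784 FPKM in floxed libraries, with each of the 6 at 1 FPKM or more in 3 or more libraries. The summed level of 8 fibroblast markers did not lie lower, at 19812 to 20374 FPKM in Pdgfra-cre libraries and 16496 to 19825 FPKM in floxed libraries. Dcn alone gave 8626 to 11261 FPKM of this sum. Of these 8 only Pdgfra had a log2 fold change below 0 (-0.34). Its groups did not overlap, at 120 to 174 FPKM in Pdgfra-cre and 178 to 200 FPKM in floxed libraries. Dcn (0.21) and Dpt (0.40) had non-overlapping groups upward, where 8.07% of all tested genes did. The part of these cell types in the Ifngr1 value was not tested, and in bulk libraries fewer cells of a type and less RNA per cell cannot be told apart.

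Ifngr2, the second chain, which binds JAK2, had 30.5, 23.9 and 27.2 FPKM in Pdgfra-cre libraries 13, 23 and 25, against 22.9, 33.2 and 22.7 FPKM in floxed libraries 8, 9 and 43. The highest and the lowest value were both in floxed libraries. The log2 fold change was 0.06 ± 0.18 (SE; 95% interval -0.34 to 0.47; adjusted p = 0.934, limma), and its sign turned to -0.030 when each library was rescaled to a common total.

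The remaining chains were at or below about 4 FPKM, and zeros were scattered over both groups. Il20ra had 0, 1.81 and 0 FPKM in Pdgfra-cre libraries 13, 23 and 25, against 1.999, 1.69 and 1.23 FPKM in floxed libraries 8, 9 and 43. It was thus detected in all floxed libraries and in 1 of 3 Pdgfra-cre libraries, whose value lay within the floxed range. The values above 0 were estimated to rest on 25.7 to 42.1 fragments each, and 3 fragments would have given 0.137 to 0.163 FPKM. The log2 fold change was -0.89 ± 0.41 (SE; 95% interval -1.82 to 0.03; adjusted p = 0.479, limma). It ran from -2.68 with a pseudocount of 0.1 to -0.26 with a pseudocount of 5, and was -1.39 without Pdgfra-cre library 23 (adjusted p = 0.189). The antisense gene Gm33332 lies within Il20ra, and without strand information reads of either cannot be told apart.

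Il20rb, its partner, was at 3.89, 0 and 1.33 FPKM in Pdgfra-cre libraries 13, 23 and 25, against 0.828, 2.08 and 0.418 FPKM in floxed libraries 8, 9 and 43. The highest and the lowest value were both in Pdgfra-cre libraries, and the group SDs, 1.98 and 0.865 FPKM, were as large as or near the means of 1.74 and 1.11 FPKM. For Il20rb limma gave a log2 fold change of 0.17 ± 0.54 (SE; 95% interval -1.04 to 1.38; adjusted p = 0.944), and it was -0.29 with a pseudocount of 0.1. Il20rb was at 0 in the Pdgfra-cre library that held Il20ra, and above 0 in both that did not. The 3 floxed libraries had both chains.

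Ifnlr1, the specific chain of the lambda interferon receptor, had 0, 0.163 and 0 FPKM in Pdgfra-cre libraries 13, 23 and 25, against 0.192, 0.435 and 0 FPKM in floxed libraries 8, 9 and 43. These values were estimated to rest on 6.02 to 13.8 fragments where above 0, and exact two-sided permutation of their log2 values returned p = 0.4. Il22ra1, the specific chain of the interleukin-22 receptor, was listed at 0 in all 6 libraries, where 3 fragments would have given 0.130 to 0.154 FPKM. Epithelial transcripts were low, with 5 of 12 markers at 1 FPKM or more in 3 or more libraries. Their sum was 12.1 to 49.6 FPKM in Pdgfra-cre libraries and 5.75 to 26.4 FPKM in floxed libraries, and Epcam was at 0 in 3 libraries. Il22ra1 was at 0 also in Pdgfra-cre library 23, which had the highest epithelial sum, and Il20ra was highest in floxed library 8, which had the lowest. In library 23 Krt8, Krt18 and Krt19 gave 11.5, 12.1 and 15.4 FPKM of that sum. Krt19 was also counted as a mesothelial marker, so the sum was not particular to epithelial cells. Among the receptors that pair a specific chain with IL10RB, these libraries thus listed the shared chain at over 50 FPKM and the specific chains at under 0.5 FPKM.

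Of the 10 chains, 7 reached 1 FPKM in 3 or more libraries and entered the test between genotypes. None passed an adjusted p of 0.05, and 0 of 7 had an unadjusted p under 0.05 in limma. Over all 11429 tested genes the shares were 0.0% at the adjusted threshold and 11.0% at the unadjusted one. The groups did not overlap in 1 of 7, against 16.4% of all tested genes. The chains had log2 fold changes above 0 in 4 and below 0 in 3, with a median of 0.06, where the median of all tested genes was 0.00. For the 5 abundant chains the 95% intervals reached no further than -0.48 and 0.59. For Il20ra and Il20rb they reached to -1.82 and 1.38.

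**Figure D2:**
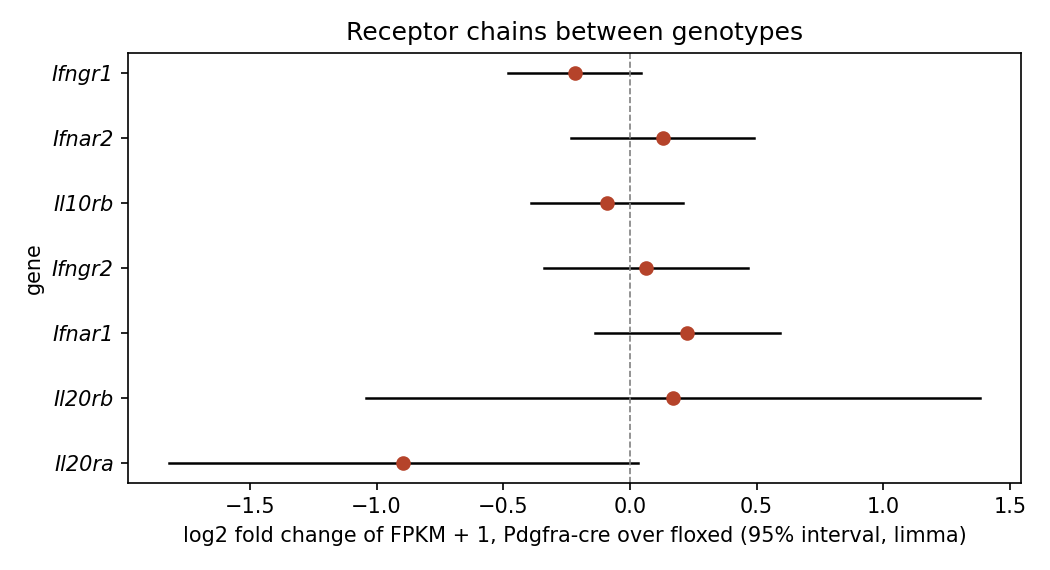
Log2 fold change of FPKM + 1, Pdgfra-cre over floxed, for the 7 chains that entered the test, ordered by level with Ifngr1 at the top. Points are limma estimates and lines their 95% intervals, which all include 0.

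Partner chains were compared within libraries, since a ratio of 2 genes does not depend on how a library was scaled. Ifnar2 was 5.83, 11.1 and 7.16 times Ifnar1 in Pdgfra-cre libraries 13, 23 and 25, against 8.61, 9.25 and 7.30 times in floxed libraries 8, 9 and 43. Ifngr1 was 6.71, 8.53 and 8.20 times Ifngr2 in Pdgfra-cre libraries 13, 23 and 25, against 10.01, 6.90 and 12.3 times in floxed libraries 8, 9 and 43. In both pairs the chain that binds JAK1 was thus the more abundant one in 6 of 6 libraries. Il10rb was 0.377, 0.295 and 0.460 times its neighbour Ifnar2 in Pdgfra-cre libraries, against 0.443, 0.413 and 0.444 times in floxed libraries in the same order of mice. The groups overlapped in each ratio. The differences in mean log2 ratio, Pdgfra-cre minus floxed, were -0.11 for Ifnar2 over Ifnar1, -0.29 for Ifngr1 over Ifngr2 and -0.22 for Il10rb over Ifnar2. Exact two-sided permutation tests gave p = 0.7, 0.4 and 0.4, or 0.7, 0.6 and 0.6 after Benjamini-Hochberg adjustment over the 3 ratios. Single libraries moved each difference: Ifnar2 over Ifnar1 was at 0.095 without Pdgfra-cre library 13 and -0.37 without library 23, Ifngr1 over Ifngr2 at -0.097 without floxed library 43 and -0.51 without floxed library 9, and Il10rb over Ifnar2 at -0.055 without Pdgfra-cre library 23 and -0.38 without library 25.

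**Figure D3:**
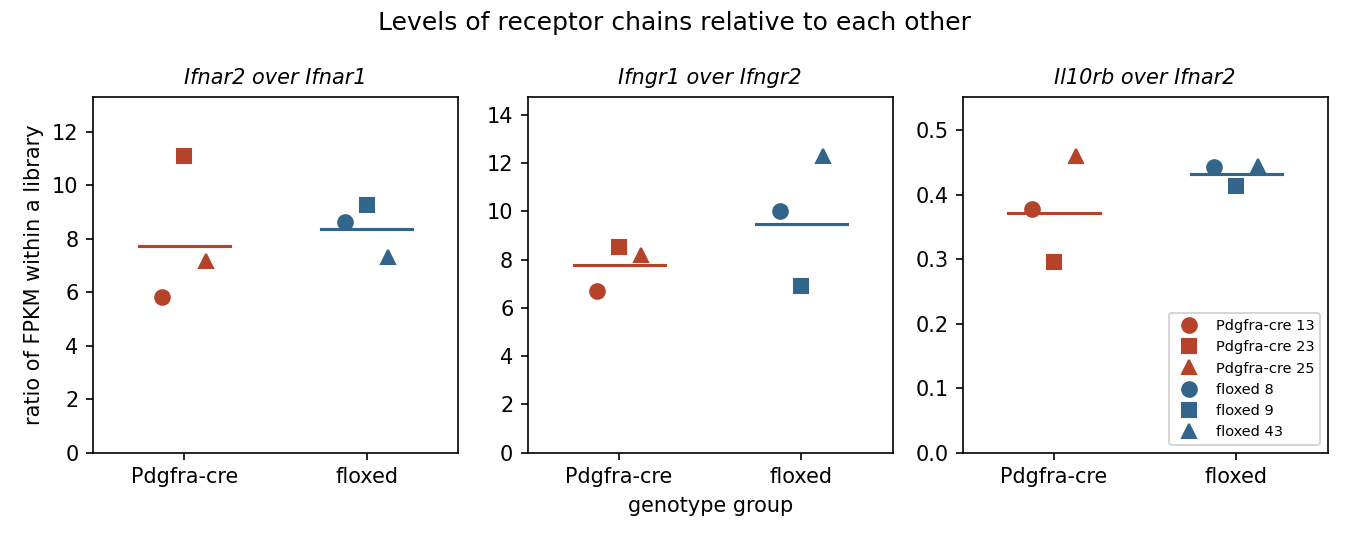
Ratio of the FPKM of receptor chains within each library, with Pdgfra-cre libraries in red left of floxed libraries in blue, and bars for the geometric mean of 3 libraries. Ifnar2 over Ifnar1 spread most in the Pdgfra-cre group, from 5.83 to 11.1, and the groups overlapped in all 3 panels.

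Beside the receptors, the kinases they bind were present at very unequal levels. Jak1, which binds 1 chain of each of these receptors, had 116, 102 and 105 FPKM in Pdgfra-cre libraries 13, 23 and 25, against 115, 122 and 100 FPKM in floxed libraries 8, 9 and 43. Tyk2 lay between 1.96 and 3.34 FPKM over all libraries, below both of the chains it binds, Ifnar1 and Il10rb. Jak2, the kinase of IFNGR2, had 10.4, 19.7 and 12.2 FPKM in Pdgfra-cre libraries, against 7.69, 6.85 and 5.45 FPKM in floxed libraries, and its groups did not overlap. With an SE of 0.25, its log2 fold change was 0.94 (adjusted p = 0.210, limma). Of 10 kinases, STAT factors and Irf9, all tested, 0 passed, 4 had non-overlapping groups upward, where 8.07% of all tested genes did, and 1 downward. Irf9, a DNA-binding factor of the type I interferon response, had 41.3 ± 10.95 FPKM in Pdgfra-cre and 26.9 ± 3.66 FPKM in floxed libraries (adjusted p = 0.298, limma; SD, n = 3 each).

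Inhibitors acting on these receptors were mixed. Of 11 listed genes 10 were tested, 0 passed, and 5 log2 fold changes were above 0 and 5 below. Socs1, an inhibitor of Janus kinases, had 25.5, 57.4 and 19.7 FPKM in Pdgfra-cre libraries 13, 23 and 25, against 15.5, 14.5 and 18.1 FPKM in floxed libraries (adjusted p = 0.339, limma). Usp18, which binds IFNAR2 and dampens type I signaling, had 22.0, 39.9 and 11.1 FPKM in Pdgfra-cre libraries, against 6.81, 12.3 and 7.81 FPKM in floxed libraries, and its groups overlapped (adjusted p = 0.283, limma). Ptpn2, a phosphatase of JAK1, had lower values in every Pdgfra-cre library, at 32.8 to 36.6 FPKM against 37.3 to 49.8 FPKM (adjusted p = 0.495, limma). Among the 10 tested inhibitors the groups did not overlap in 1 upward and 1 downward, where 8.07% and 8.29% of all tested genes did. Socs3, induced by STAT3 downstream of interleukin-10, was at 178 ± 27.2 FPKM in Pdgfra-cre and 182 ± 41.8 FPKM in floxed libraries (SD, n = 3 each).

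Genes listed as responding to interleukin-10 and STAT3 had a median log2 fold change of 0.06 over 12 tested members, 7 above 0 and 5 below, and 0 passed. Groups did not overlap in 2 of the 12 upward and 2 downward, where 8.07% and 8.29% of all tested genes did. The lowest unadjusted p values were those of Cd14, Il4ra and Fgl2. Cd14, a lipopolysaccharide co-receptor, had 7.37, 23.3 and 7.05 FPKM in Pdgfra-cre libraries 13, 23 and 25, against 4.24, 5.19 and 1.30 FPKM in floxed libraries 8, 9 and 43 (adjusted p = 0.283, limma). Il4ra, the interleukin-4 receptor chain, had 19.3 to 22.0 FPKM in Pdgfra-cre and 24.98 to 26.95 FPKM in floxed libraries (adjusted p = 0.378, limma). Fgl2, a fibrinogen-like protein gene, had 127 to 129 FPKM in Pdgfra-cre and 100.5 to 124 FPKM in floxed libraries (adjusted p = 0.533, limma).

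Genes that respond to interferons were set beside the receptor chains, and none of them passed the test. Of 30 listed type I response genes 27 were tested, 26 had a log2 fold change above 0, 12 had non-overlapping groups upward and 0 passed, with a median of 0.87. Over all 11429 tested genes 5752 were above 0 and 8.07% had non-overlapping groups upward. Of 20 type II response genes 19 were tested, 19 were above 0, 18 had non-overlapping groups upward, against the same 8.07%, and 0 passed, with a median of 1.47. The mean of the type I list less the floxed mean was 0.78, 1.499 and 0.24 on the log2 scale in Pdgfra-cre libraries 13, 23 and 25. Markers of other cells differed in their order over these libraries. Sums of mesothelial, neutrophil, leukocyte, macrophage, T cell and epithelial markers stood in the same order. Among these sums only the mesothelial ones lay wholly above the floxed range. With 3 libraries, lists can easily share an order. Sums of smooth muscle, endothelial, glia and B cell markers stood in the opposite order. Smooth muscle was at 408, 177 and 451 FPKM in libraries 13, 23 and 25. In the same libraries Tek alone gave 39.3, 32.3 and 41.5 FPKM of endothelial sums of 40.6, 33.3 and 43.8 FPKM. The endothelial marker Cdh5 was at 0 in all 6 libraries. No T cell or B cell marker reached 1 FPKM in 3 or more libraries. The sum of 6 mesothelial markers, of which 5 reached 1 FPKM in 3 or more libraries, was 27.97, 78.2 and 14.2 FPKM in Pdgfra-cre libraries 13, 23 and 25, against 3.09 to 12.9 FPKM in floxed libraries. The neutrophil sum was 20.9, 193 and 12.1 FPKM in the same Pdgfra-cre libraries, against 2.32 to 12.8 FPKM in floxed libraries. The part of these cells in the response values was not tested. In Pdgfra-cre libraries 13, 23 and 25 Ifnar1 was at 0.48, 0.02 and 0.18, and Ifnar2 at -0.01, 0.43 and -0.03. The library with the highest response thus had the highest Ifnar2 and the lowest Ifnar1 of its group. For Ifngr1 these differences were -0.26, -0.26 and -0.13, while the type II list was at 1.29, 2.66 and 0.52. Ifit3, an RNA-binding antiviral protein gene, had 28.4, 56.4 and 19.1 FPKM in Pdgfra-cre libraries, against 9.45, 12.3 and 11.5 FPKM in floxed libraries (adjusted p = 0.171, limma). Sp100, a nuclear body protein gene, averaged 30.4 ± 9.93 FPKM in Pdgfra-cre and 15.6 ± 0.828 FPKM in floxed libraries, and Irf7, a transcription factor of type I interferon genes, 51.9 ± 25.6 and 21.2 ± 5.50 FPKM in the same order (SD, n = 3 each). Gbp4, a guanylate-binding protein gene, had 27.0, 65.2 and 10.7 FPKM in Pdgfra-cre libraries 13, 23 and 25, against 5.48, 5.83 and 3.61 FPKM in floxed libraries 8, 9 and 43 (adjusted p = 0.169, limma). Tap1, a peptide transporter gene of antigen presentation, averaged 79.1 ± 62.8 FPKM in Pdgfra-cre and 17.1 ± 4.42 FPKM in floxed libraries (SD, n = 3 each). In each of these genes Pdgfra-cre library 23 was the highest of all 6.

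**Figure D4:**
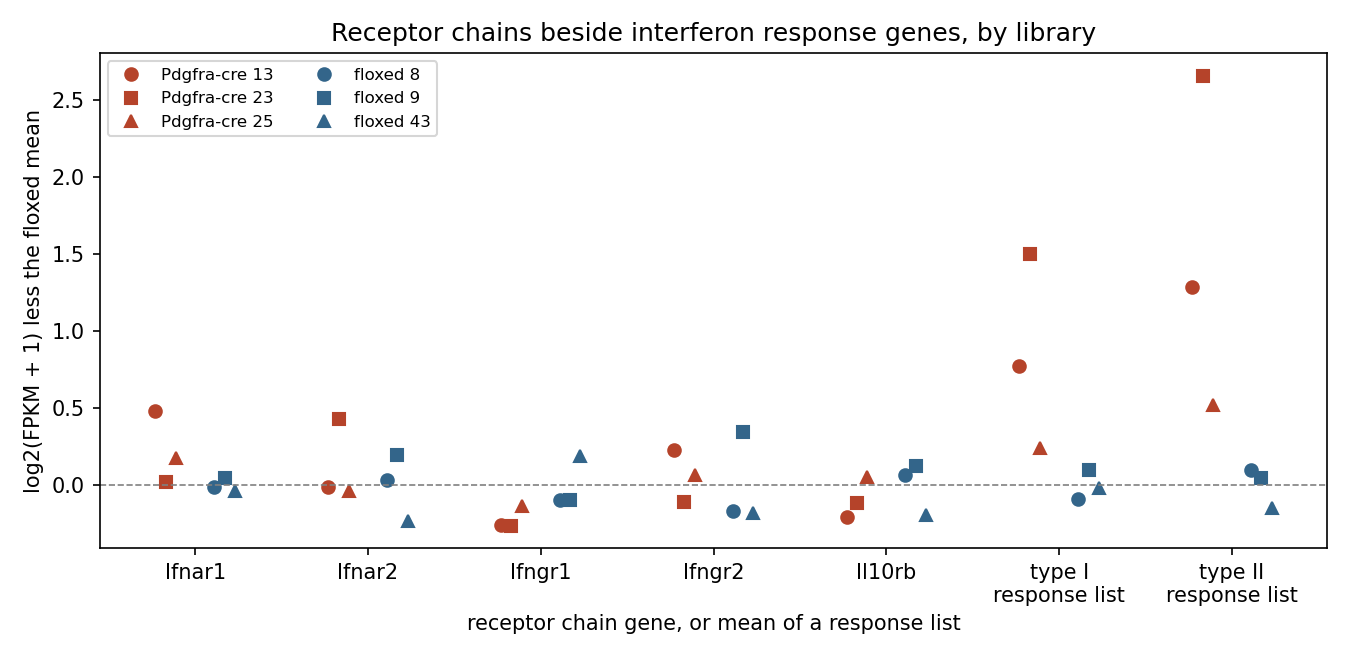
Difference of log2(FPKM + 1) from the floxed mean for 5 receptor chains and for the mean of the tested genes of the type I and type II response lists, by library. Receptor chains stayed between -0.26 and 0.48, while the lists reached 1.499 and 2.66 in Pdgfra-cre library 23.

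Ligands of these receptors were scarce in the sorted cells, from which leukocytes and epithelial cells had been removed. Of 26 ligand genes 20 were listed at 0 in all 6 libraries, and the highest value of any was 1.03 FPKM. That value was of Il19, a ligand of the receptor made of IL20RA and IL20RB, in Pdgfra-cre library 13, with 0 and 0.491 FPKM in libraries 23 and 25, against 0, 0.576 and 0 FPKM in floxed libraries 8, 9 and 43. Il22 was at 0.819 FPKM in Pdgfra-cre library 23 and 0.134 FPKM in floxed library 9. Il24 was above 0 only in floxed library 9 (0.129 FPKM), Ifna4 only in Pdgfra-cre library 13 (0.477 FPKM), and Ifnz in floxed libraries 8 (0.166 FPKM) and 43 (0.0839 FPKM).

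Another pair of genes encodes proteins of the same family. F3, which encodes tissue factor, the starter of blood coagulation, had 182, 112 and 143 FPKM in Pdgfra-cre libraries 13, 23 and 25, against 183, 227 and 267 FPKM in floxed libraries 8, 9 and 43. The groups nearly touched, at 182 FPKM in Pdgfra-cre library 13 and 183 FPKM in floxed library 8, and limma gave a log2 fold change of -0.64 with an SE of 0.19 (adjusted p = 0.253). Il22ra2, which encodes a soluble decoy for interleukin-22 and lies between Ifngr1 and Il20ra, was at 0 to 0.267 FPKM in Pdgfra-cre and 0 to 0.327 FPKM in floxed libraries.

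The genes closest to each chain in pattern were sought by the root mean square distance between centred log2(FPKM + 1) values over 6 libraries, among 7879 other genes with a mean of at least 5 FPKM. Il10rb was closest to Trp53bp1 (0.0354), Ifnar1 to Katna1 and Ppm1g (0.0407 and 0.0510) and Ifnar2 to Sepw1 and C1d (0.0388 and 0.0459). Ifngr1 was closest to Impad1 and Ddx50 (0.0316 and 0.0442), and Ifngr2 to Pigs and 0610012G03Rik (0.0440 and 0.0472). The chains themselves departed from their own means by 0.130 to 0.205 on this measure. Il20ra (Gorab and Dnmt3l, 0.284 and 0.290) and Il20rb (S100a4 and Enpep, 0.222 and 0.383), which varied by 0.680 and 0.744, had no match as close. No chain of the family was among the 2 closest genes of another. Chains with a mean under 5 FPKM could not be returned as matches. The other chains were few among 7879 genes, so this absence says little about the family.

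Facts of the whole series bear on these values as follows. Read totals were not given, and the steps between low values put them at about 7.60 to 8.99 times 1000000 fragments per library, with 11188 to 11358 genes at or above 1 FPKM. Podoplanin (Pdpn) was at 78.3 to 124 FPKM, Pecam1 (CD31) at 0.0741 to 0.856 and Epcam at 0 to 1.11. By mean correlation with the rest, Pdgfra-cre library 23 stood lowest at 0.950, and the other libraries lay at 0.960 to 0.970. Nothing in the labels gives a batch, and the tests set the difference between groups against the spread between mice.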

How the data were processed

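RNA of sorted colonic stromal cells from 6 mice was amplified as full-length cDNA (SMART-Seq HT) and made into NexteraXT libraries, per the labels' protocols, which are not stranded. The deposited values are FPKM per gene, 1 table per library, per the file headers. Per the submitters' processing notes, TopHat2 2.1.1, Bowtie2 2.2.8, SAMtools 0.1.18, Cuffdiff 2.2.1 and mm10 were used; annotation and options are not given in the sources used here.

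Genes that reached 1 FPKM in 3 or more libraries were tested as log2(FPKM + 1) with limma 3.58.1 in R 4.3.3 (variance trend, Benjamini-Hochberg over 11429 genes, threshold 0.05). Fold changes on this scale understate low genes. Chains below the filter and ratios had exact two-sided permutation tests. On simulated data the fit recovered 59% of 500 genes changed by a log2 fold change of 1 and 93.2% of 500 changed by 2. Only genes above about 5 FPKM were changed there, so Il20ra and Il20rb lie outside the range tested. Fragments were estimated from the most frequent value, times length, within a preset window of low values of single-transcript genes of at least 1.5 kb. They rest on 49 to 64 genes in that window per library. The window bounds the depth they can give, and they are rough. The level of 3 fragments given for a gene at 0 covers counting error only. Named genes were all 10 chains, ligands above 0, 3 tested genes with the lowest p per other list, and the 2 closest in pattern. Jak1, Tyk2 and Socs3 were named beyond that rule. A few genes that the rule names are not reported here. The chains and lists were chosen with earlier results of these data known. Alternatives were other pseudocounts, filters, scalings and weights, and leaving out each library.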

Additional observations from a re-analysis of the deposited data

How the results depend on the processing

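No chain passed under any of the 9 alternatives that kept all libraries or without any 1 library, and the lowest adjusted p of any chain was 0.189 (Il20ra without Pdgfra-cre library 23). Of 155 recomputed values 144 kept their direction and side of the threshold. Counts of genes called, which have no direction, were among them. Values of Il10ra, Ifnlr1 and the ratios could not change side, since their exact permutation tests cannot give p below 0.1. Directions turned for Ifngr2 rescaled to TPM (-0.030) and Il20rb with a pseudocount of 0.1 (-0.29). Leaving out single libraries gave log2 fold changes of -0.022 to 0.23 for Ifnar2, -0.026 to 0.24 for Ifngr2 and -0.077 to 0.76 for Il20rb, and a difference of -0.37 to 0.10 for the log2 ratio of Ifnar2 over Ifnar1, which was above 0 without Pdgfra-cre library 13. The same ranges were -0.51 to -0.097 for Ifngr1 over Ifngr2 and -0.38 to -0.055 for Il10rb over Ifnar2. The count of all genes called was 0 to 31 without single libraries. It was 31 without Pdgfra-cre library 25, 3 without Pdgfra-cre library 13 and 2 without floxed library 43, with 0 receptor chains among them, and the cause was not tested. Rescaling to TPM moved the median of all genes by -0.09. Il20ra and Il20rb were not in the fit with a filter of 5 FPKM, nor Il20rb in 3 of the fits that left out a library. Depth limits Il10ra, Ifnlr1 and Il22ra1, where 3 fragments correspond to 0.0798 to 0.154 FPKM. No paired analysis was possible because the labels give no pairing between mice of the groups.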
